A study of Homo sapiens with 6 samples.

Results

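The HOX genes of the 4 human clusters were examined for R-loop peaks in HEK293T cells, a human embryonic kidney line. The members are 38 listed genes found by name in GENCODE release 44 mapped to GRCh37, out of 64486 annotated genes, of which 20176 are protein-coding. They comprise 10 genes of HOXA on chromosome 7, 10 of HOXB on chromosome 17, 9 of HOXC on chromosome 12 and 9 of HOXD on chromosome 2. A peak was assigned to a member when it overlapped the gene record or the 2 kb on either side of it. By this rule, 21 of the 10231 peaks of untreated cells and 26 of the 11085 peaks of treated cells lay at a HOX gene. The wild-type cells were left untreated (2 samples) or given N2-heptynyl-dG, an alkylated deoxyguanosine nucleoside, at 10 μM in the medium for 3 h (2 samples), and 2 input samples came from untreated cells. All were then exposed to 5 mM N3-kethoxal for 10 min. N3-kethoxal labels guanines that are not base-paired, and spKAS-seq then recovers the unpaired strand with its orientation kept. The peaks analysed here form 1 list per condition, with a position and a strand but no height, so no spread between replicates and no p-value can be given for any of the values. Counts are therefore set beside the same counts over all genes or all peaks, and intervals for shares are exact 95% binomial intervals that cover counting error only.

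HOX genes encode homeodomain transcription factors that specify position along the body axis, and each cluster is transcribed from a single strand, with gene order following the order of use along the embryo. The clusters also hold many noncoding RNA genes on the other strand, among them HOTAIR, HOTTIP and HOTAIRM1, and their chromatin is governed by Polycomb and trithorax complexes. An R-loop forms when nascent RNA pairs with its template DNA and leaves the coding strand unpaired. Such structures are known for promoters and ends of transcribed genes, and for strands rich in guanine.

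The following 120-base stretches were taken from GRCh37 inside peaks of HOXA, HOXC and HOXD. Each is the stretch with the largest excess of G over C on the strand of its peak, outside annotated untranslated regions. Being picked for G, the stretches do not stand for whole peaks. Over the whole peak, G exceeded C in 8 of 21 untreated and 6 of 26 treated HOX peaks. The stretches are written 5′ to 3′ on the strand of the peak, with runs of at least 3 G in capitals. The first 5 come from untreated peaks that overlap a treated peak of the same strand, and of these only the stretch downstream of HOXA9 lies outside the treated peak, which ends at position 27201250. The stretches named for the HOXA3 and HOXD11 start sites are parts of the peaks over those sites and do not hold the sites themselves:
Peak over the HOXA3 start site, chr7:27191787-27191906, minus strand: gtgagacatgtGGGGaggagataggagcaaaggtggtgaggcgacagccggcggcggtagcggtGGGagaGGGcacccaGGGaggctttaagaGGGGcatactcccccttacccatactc
Peak over the HOXD11 start site, chr2:176971779-176971898, plus strand: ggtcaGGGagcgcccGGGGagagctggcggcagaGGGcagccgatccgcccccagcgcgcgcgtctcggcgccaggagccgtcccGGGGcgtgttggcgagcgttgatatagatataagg
Downstream of HOXA9, chr7:27201290-27201409, minus strand: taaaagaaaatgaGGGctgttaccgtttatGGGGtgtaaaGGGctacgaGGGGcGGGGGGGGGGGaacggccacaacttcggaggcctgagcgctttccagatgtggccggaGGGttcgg
Downstream of HOXD13, chr2:176962045-176962164, plus strand: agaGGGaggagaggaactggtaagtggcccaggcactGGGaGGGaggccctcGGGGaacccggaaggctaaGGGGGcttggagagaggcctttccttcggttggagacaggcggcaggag
HOXC4 record, chr12:54431864-54431983, plus strand: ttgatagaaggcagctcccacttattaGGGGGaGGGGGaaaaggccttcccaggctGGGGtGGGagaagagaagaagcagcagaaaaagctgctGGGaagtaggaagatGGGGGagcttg
Both of the next come from peaks found in untreated cells and not in treated cells:
Downstream of HOXD9, chr2:176990371-176990490, plus strand: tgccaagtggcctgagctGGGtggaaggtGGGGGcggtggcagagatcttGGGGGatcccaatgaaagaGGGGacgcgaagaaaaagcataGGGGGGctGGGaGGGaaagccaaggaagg
HOXC6 record, chr12:54398818-54398937, plus strand: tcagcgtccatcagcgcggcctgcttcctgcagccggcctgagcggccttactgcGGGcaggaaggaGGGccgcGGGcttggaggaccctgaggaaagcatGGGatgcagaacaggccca
The last 5 come from peaks found after N2-heptynyl-dG and not in untreated cells, and the final pair of these lies on the strand opposite to the HOX genes:
Upstream of HOXA4, chr7:27170501-27170620, minus strand: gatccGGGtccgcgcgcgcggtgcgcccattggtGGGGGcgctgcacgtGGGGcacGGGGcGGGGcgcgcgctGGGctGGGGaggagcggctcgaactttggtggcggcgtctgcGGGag
Upstream of HOXD8, chr2:176993263-176993382, plus strand: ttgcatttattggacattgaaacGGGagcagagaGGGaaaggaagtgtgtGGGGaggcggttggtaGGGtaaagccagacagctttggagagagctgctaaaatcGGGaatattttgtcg
HOXD3 intron, chr2:177022904-177023023, plus strand: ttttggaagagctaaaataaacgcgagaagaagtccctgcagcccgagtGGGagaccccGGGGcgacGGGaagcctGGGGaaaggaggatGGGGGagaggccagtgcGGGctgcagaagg
HOXA11-AS, chr7:27225088-27225207, plus strand: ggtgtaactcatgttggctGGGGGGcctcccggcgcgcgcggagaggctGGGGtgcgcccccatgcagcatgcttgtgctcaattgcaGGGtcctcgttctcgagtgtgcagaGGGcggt
HOXC13-AS, chr12:54331574-54331693, minus strand: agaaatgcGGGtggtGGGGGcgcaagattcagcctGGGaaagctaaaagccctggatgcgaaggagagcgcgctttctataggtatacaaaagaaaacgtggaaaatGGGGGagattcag
The stretch downstream of HOXA9 held 51 G and 21 C and has an unbroken series of G near its middle. The HOXA4 stretch held the most G of those printed, 62 over its 120 bases, and had 8 runs of at least 3 G.

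Peaks were found at 21 of 38 members in untreated cells and at 21 of 38 in treated cells. Over all protein-coding genes the same rule gave 41.7% and 43.8%, although a HOX record is short, with a median length of 4220 bp against 27200 bp for coding genes. The added 2 kb therefore weigh more for HOX genes. With the record alone, 14 members in untreated and 15 in treated cells had a peak, and no coding-gene share under that rule is given here. Both lists had a peak at 18 members. HOXC6, HOXC9 and HOXD9 had one in the untreated list alone, and HOXA4, HOXD8 and HOXD3 in the treated list alone. In neither list was there a peak at HOXA2, HOXA10, HOXA13, HOXB1, HOXB2, HOXB4, HOXC5, HOXC8, HOXC10, HOXC11, HOXC12, HOXD1, HOXD4 or HOXD12. Neighbouring genes share peaks, so the number of genes exceeds what separate peaks would give: 10 untreated and 9 treated peaks were each counted at more than 1 member. The last genes inside the 2-kb limit were HOXC9 at 1424 bp from an untreated peak and HOXD10 at 1276 bp from a treated one, and the first genes beyond it were HOXC5 at 2150 bp and HOXD12 at 2031 bp.

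**Figure D1:**
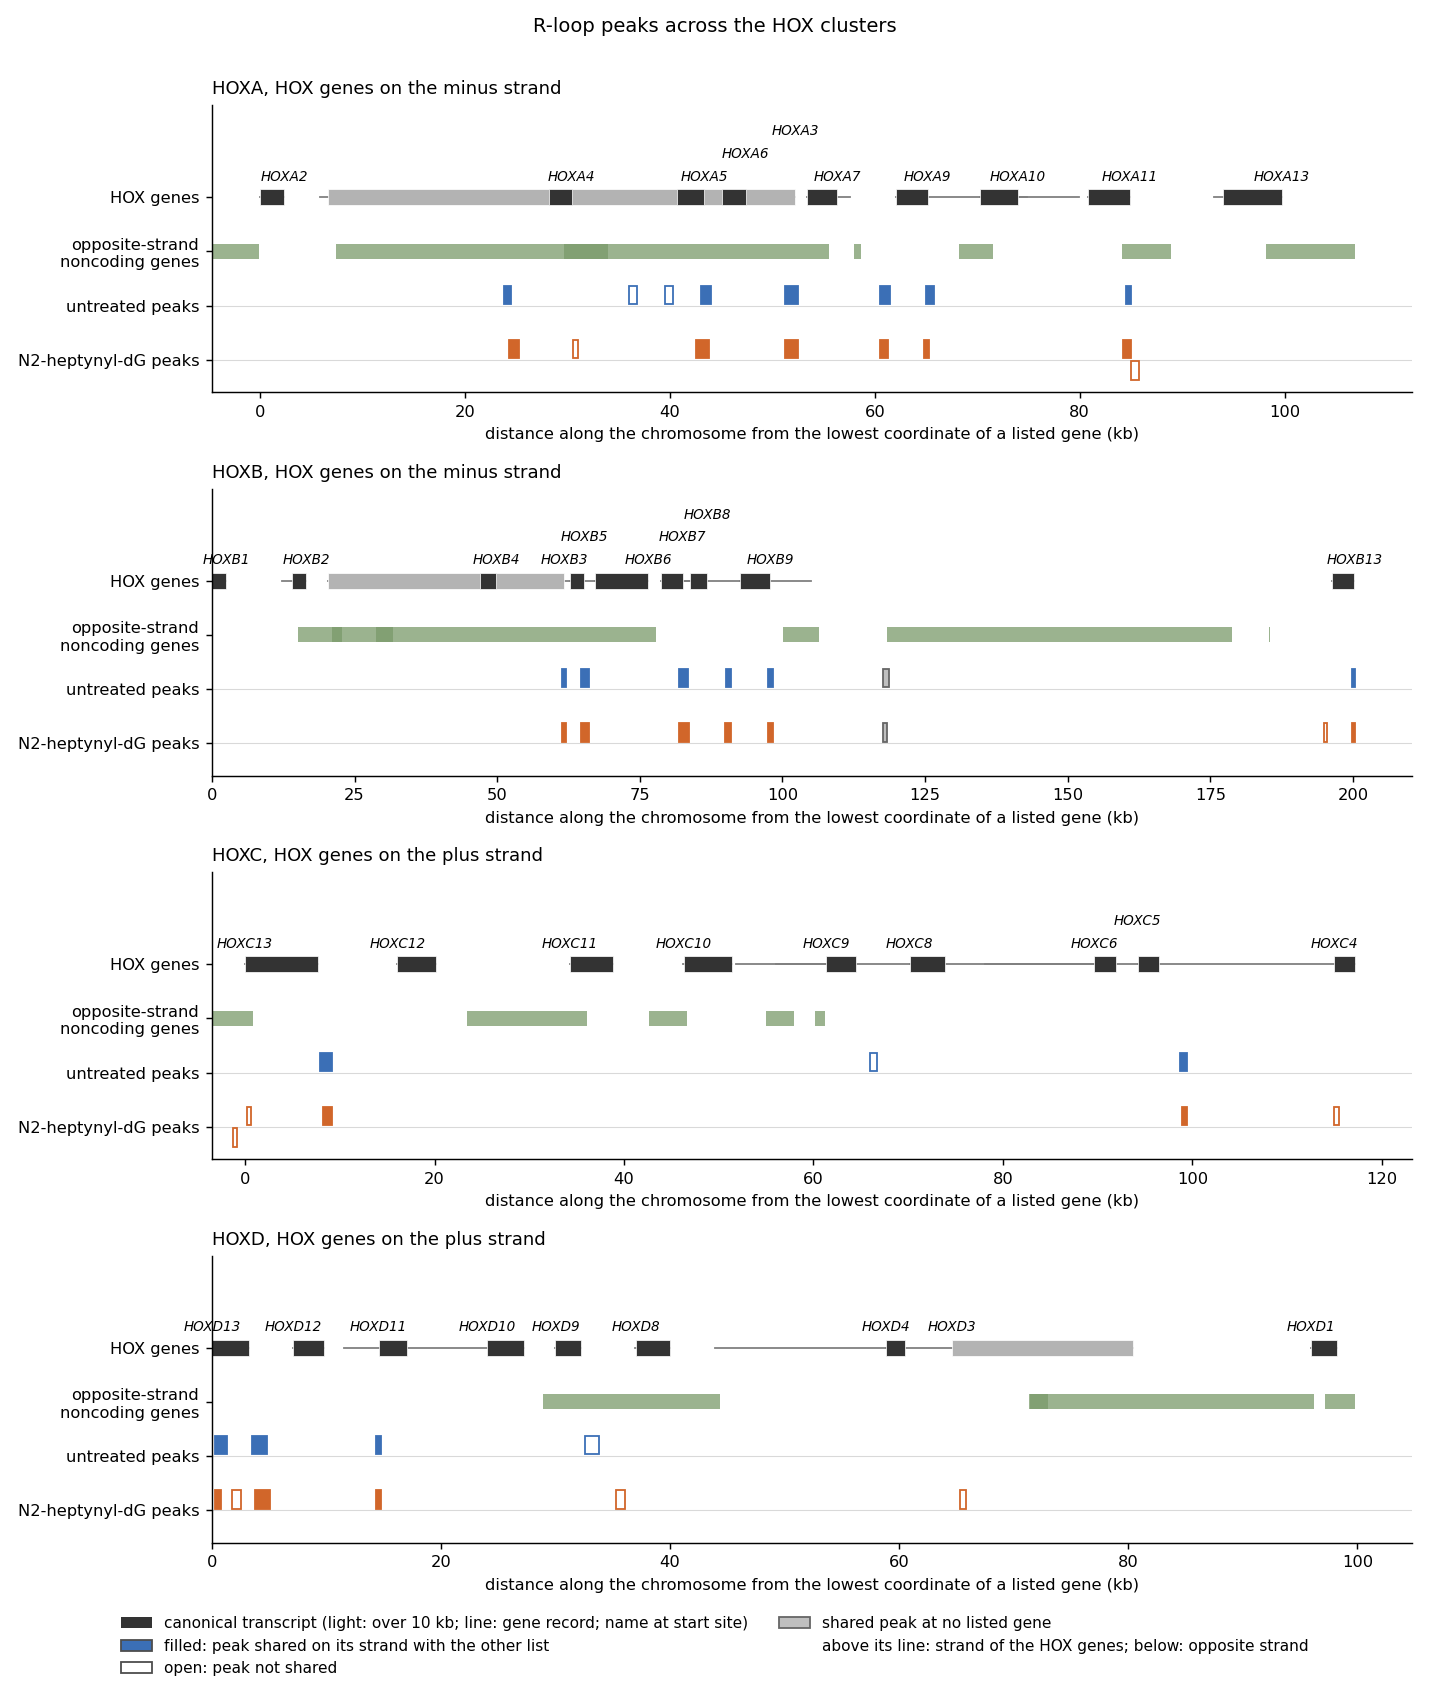
Maps of the 4 clusters with the HOX genes, the noncoding genes of the opposite strand and the peaks of both lists, drawn to scale along the chromosome in kb. Filled peaks are shared on their strand with the other list and open ones are not. In HOXB the 6 untreated peaks are all filled, and the only peaks drawn below their line (the strand opposite to the HOX genes) are 1 treated peak in HOXA and 1 in HOXC.

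Peaks were dense per length of DNA in the clusters. The windows spanning each cluster with 2 kb on either side, 531350 bp in all, held 3.95 HOX peaks per 100 kb in untreated and 4.89 in treated cells, compared with 0.335 and 0.363 over chromosomes 1 to 22 and X. A comparison restricted to gene-bearing DNA was narrower but ran the same way. The records of all coding genes with 2 kb on either side held 0.654 and 0.706 peaks per 100 kb, and those of the HOX members 5.21 and 6.45. HOX genes are short and close together: these windows span 403238 bp for the 38 members and 1355783654 bp for the 20176 coding genes. Counted by gene, the contrast was smaller, with a peak at 21 of 38 members in each list, beside 41.7% and 43.8% of coding genes. How much of the density goes with gene length and spacing was not tested. HOXA was the densest cluster, with 8 peaks in each list, or 7.71 per 100 kb, covering 6.51% of its 104 kb. HOXB had 6 untreated and 7 treated peaks in 204 kb, HOXC 3 and 5 in 121 kb, and HOXD 4 and 6 in 102 kb. Beyond the clusters the nearest peaks were 235472 bp from a member for HOXA in both lists (at SKAP2), 268426 bp for HOXB in untreated and 102426 bp in treated cells, 129731 bp and 70231 bp for HOXC, and 910707 bp and 78356 bp for HOXD. Inside the HOXB window, in the long stretch between HOXB9 and HOXB13, 1 peak was assigned to no member. This minus-strand peak, chr17:46723539-46724538 in untreated cells and chr17:46723539-46724288 in treated cells, lay 12604 bp from the nearest HOX gene, at the noncoding genes LINC03057 and LINC02086. LINC02086 starts at position 46724285, so the treated peak reached only the edge of its record.

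**Figure D2:**
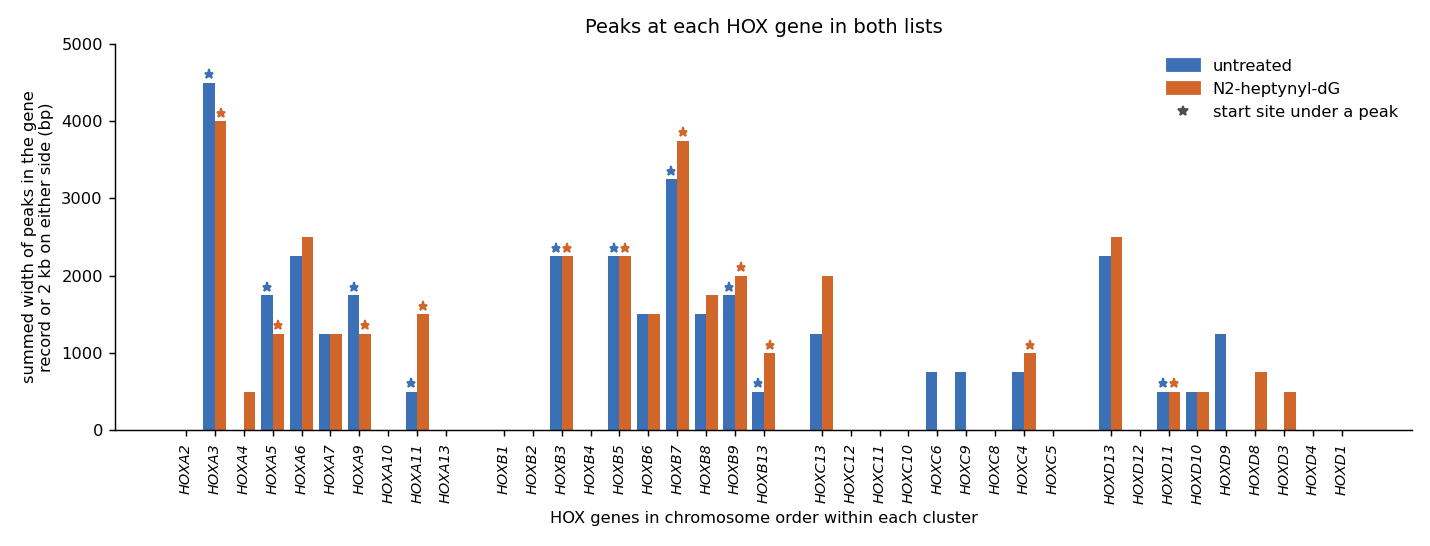
Summed width in bp of the peaks in the record of each of the 38 HOX genes or 2 kb on either side, untreated (blue) and N2-heptynyl-dG (orange), with a star where the start site of the canonical transcript lies under a peak. HOXA3 and HOXB7 carry the largest sums, and 14 genes carry none in either list.

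Start sites were the commonest single place. The start site of the canonical transcript lay under a peak for 10 members in untreated cells and 11 in treated cells, where 16.8% and 19.0% of coding genes had their start site under a peak. All 10 untreated ones were also covered after treatment: HOXA3, HOXA5, HOXA9, HOXA11, HOXB3, HOXB5, HOXB7, HOXB9, HOXB13 and HOXD11. HOXC4 was added in the treated list. No canonical transcript end of a member lay under a peak in either list. By cluster, HOXA had 4 covered start sites and HOXB 5 in both lists, HOXD 1 in both, and HOXC 0 in untreated and 1 in treated cells. Counted over peaks, 47.6% of untreated and 42.3% of treated HOX peaks covered a member's start site, beside 30.9% and 32.3% of all peaks for coding start sites. These are unlike sets, since all peaks include those near no coding gene, while every HOX peak lies in or within 2 kb of a HOX record.

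The members can also be ordered by paralogue group, the number that related genes of the 4 clusters share and that follows position along the axis. Of the 7 anterior members (groups 1 to 3), 2 had a peak in untreated and 3 in treated cells. Of the 15 central members (groups 4 to 8), the counts were 9 and 10. Of the 16 posterior members (groups 9 to 13), they were 10 and 8. Over all coding genes the shares were 41.7% and 43.8%. Neighbouring members share peaks, so the members are not separate observations, and a trend along the axis was not tested. In untreated cells every member had a peak in group 6 (3 members), group 7 (2) and group 9 (4: HOXA9, HOXB9, HOXC9 and HOXD9). Several of these counted only through the 2 kb beside their records. Their untreated peaks lay 1014 bp away for HOXA6, 1074 bp for HOXB6, 834 bp for HOXA7, 1424 bp for HOXC9 and 326 bp for HOXD9. The peak counted at HOXC6 was the same as that at HOXC9. HOXC9 and HOXD9 had none after treatment. No listed member of groups 1, 2 or 12 had a peak in either list.

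In HOXB, every untreated peak was found again after treatment. The cluster lies on the minus strand, and 4 of its 6 shared peaks had identical borders in both lists. HOXB3, HOXB5 and HOXB9, which act in patterning of the hindbrain, neck and trunk, each had a start site under a peak that did not move. The HOXB3 start site lay under a 750-bp peak, chr17:46667289-46668038, in both lists. HOXB5 lay under a 1500-bp peak, chr17:46670539-46672038, that reached within 2 kb of HOXB6. HOXB9 lay under a 1000-bp peak, chr17:46703289-46704288, with a GC content of 66.9%, the highest of the untreated HOX peaks. The start site of HOXB7 lay under chr17:46687789-46689288 in untreated cells and under chr17:46687789-46689538 in treated cells, so that the peak measured 1500 bp and then 1750 bp, the widest at any HOX gene. Part of this peak lay over the HOXB8 record as well. A further peak between HOXB8 and HOXB9 lay outside every canonical transcript and measured 750 bp and 1000 bp. HOXB13, a factor of prostate development that stands apart from the rest of the cluster, had a 500-bp peak over its start site, chr17:46805789-46806288, in both lists. After treatment it also had a 500-bp peak at chr17:46800789-46801288, 836 bp beyond its record and over PRAC2, a gene of the opposite strand.

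In HOXA, also on the minus strand, 6 of 8 peaks were shared in each list, including all 4 over start sites, while 2 of 3 untreated peaks elsewhere inside transcripts had no treated counterpart. HOXA3, which is needed for the thymus and other pharyngeal organs, has a record of 46400 bp that contains HOXA4, HOXA5 and HOXA6, and it carried 5 peaks (4500 bp in all) without and 4 (4000 bp) with treatment. Its start site lay under the 1250-bp peak chr7:27191251-27192500 in both, which reached within 2 kb of HOXA6 and HOXA7. The lncRNA genes ENSG00000273433 and ENSG00000272801, on the same strand, also start under this peak, so it cannot be assigned to HOXA3 alone. HOXA5, a regulator of lung and skeletal development, had its start site under chr7:27183001-27184000 in untreated and chr7:27182501-27183750 in treated cells, an overlap of 750 bp. HOXA9, known for its part in blood progenitors and leukaemia, had its start site under a 750-bp untreated and a 500-bp treated peak that overlapped by 250 bp. A further peak downstream of the HOXA9 record was also shared, with widths of 1000 bp and 750 bp. Inside the HOXA3 record, untreated peaks at chr7:27176001-27176750 and chr7:27179501-27180250 had no treated counterpart, and the nearest treated peaks of that strand lay 5000 bp and 2250 bp away. Conversely, the treated peak chr7:27170501-27171000, with its midpoint at -374 bp from the HOXA4 start site (upstream), had its nearest untreated peak 5000 bp away. Its GC content of 67.6% was above that of every untreated HOXA peak, which ranged from 45.6% to 59.9%. Treated HOXA peaks ranged from 49.2% to 68.8%, the highest being the shared peak over the HOXA9 start site.

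HOXC and HOXD, on the plus strand, had fewer start sites under peaks than HOXA and HOXB. In the treated list 3 of 5 HOXC peaks and 3 of 6 HOXD peaks were not shared, beside 2 of 8 in HOXA and 1 of 7 in HOXB, whereas in the untreated list it was 1 of 3 in HOXC, 1 of 4 in HOXD, 2 of 8 in HOXA and 0 of 6 in HOXB. HOXC13, a regulator of hair and nail keratins, had a peak downstream of its record in both lists, chr12:54340546-54341795 in untreated and chr12:54340796-54341795 in treated cells. A treated peak at chr12:54332796-54333295, wholly within coding exon sequence of HOXC13, had its nearest untreated peak 7250 bp away and was the richest in GC of all HOX peaks, at 73.4%. HOXC4 had a shared peak inside its 39100-bp record and upstream of its canonical start site, 750 bp wide without and 500 bp with treatment, and a treated peak over its canonical start site, chr12:54447546-54448045. The untreated peak chr12:54398546-54399295 lay inside the HOXC6 record and 1424 bp from HOXC9, and the nearest treated peak of that strand was 32250 bp away. HOXD13, the most posterior gene of its cluster and required for digits, carried 2 untreated and 3 treated peaks. One lay within the gene and measured 1000 bp without and 500 bp with treatment, and another lay downstream and measured 1250 bp in both, while the third, chr2:176959242-176959991, was found in treated cells alone. HOXD11, which shapes the forearm, had its start site under the 500-bp peak chr2:176971742-176972241 in both lists, 1276 bp from HOXD10. Downstream of HOXD9 the untreated peak chr2:176989992-176991241 had no overlapping treated peak, but a treated peak began 1500 bp further on, at chr2:176992742-176993491, upstream of HOXD8. The treated peak in the intron of HOXD3, chr2:177022742-177023241, was 31500 bp from any untreated peak of its strand.

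**Figure D3:**
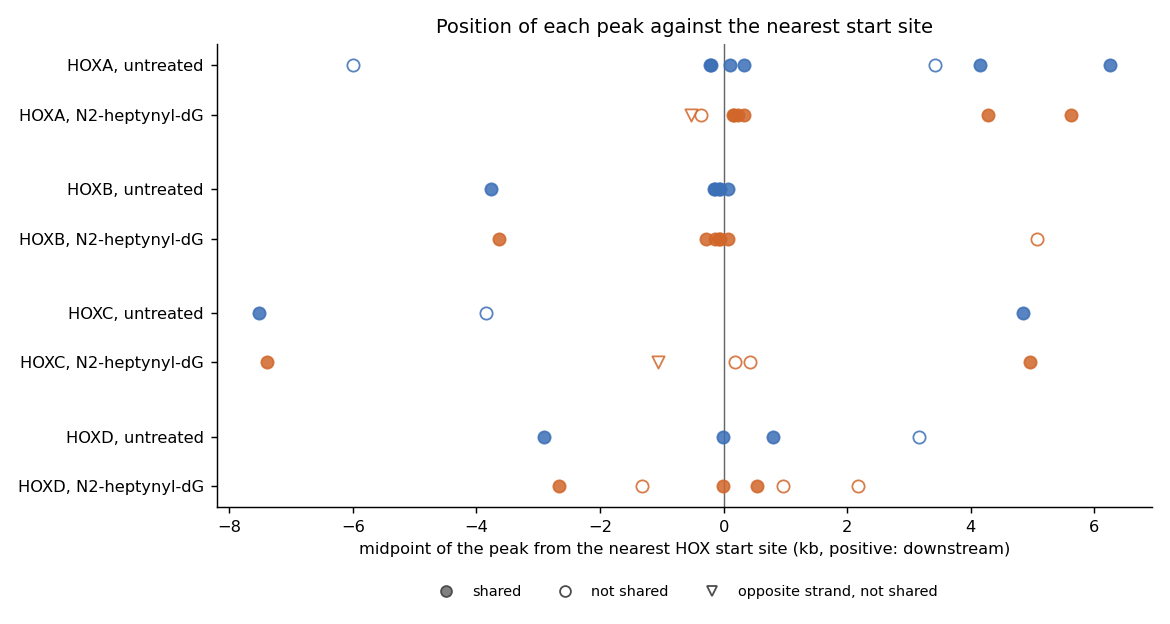
Distance in kb from the nearest start site of a canonical HOX transcript to the midpoint of each HOX peak, positive downstream, by cluster and list. Circles lie on the strand of the HOX genes and triangles on the opposite strand, and open symbols have no same-strand peak in the other list. The HOXA and HOXB peaks near 0 are filled in both lists apart from 2 open treated symbols in HOXA, whereas the HOXC treated peaks near 0 are all open.

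Counted over peaks, 17 of 21 untreated HOX peaks (81.0%, interval 58.1% to 94.6%) overlapped a treated peak of the same strand, and 17 of 26 treated ones (65.4%, 44.3% to 82.8%) overlapped an untreated peak. The corresponding shares of all peaks, 74.6% and 69.2%, lie inside these intervals. Peaks over start sites were also counted separately. All 10 untreated HOX peaks over a member's start site were shared, where 84.3% of all untreated peaks over a coding start site were, and 10 of 11 treated ones, where 75.5% were. Of the HOX peaks away from start sites, 7 of 11 untreated and 7 of 15 treated peaks were shared, beside 70.3% and 66.3% of all such peaks. Among the 17 pairs, 6 had identical borders (35.3%, against 42.7% of the 7726 pairs of the whole lists), 5 were wider after treatment, 5 narrower and 7 equally wide. Summed over the pairs, treated peaks were 250 bp shorter in all. In the whole lists 1965 pairs were wider after treatment, 2045 narrower and 3716 equally wide. The 9 treated HOX peaks that were not shared were 500 to 750 bp wide with a median of 500 bp, the same median as unshared peaks of the whole list. The 4 untreated ones that were not shared were 750 to 1250 bp wide with a median of 750 bp, against 500 bp over the whole list. Shared HOX peaks had a median of 1000 bp in each list, and shared peaks of the whole lists 750 bp. Peaks of 500 bp, the least width among HOX peaks, made up 3 of 21 untreated and 11 of 26 treated HOX peaks (14.3% and 42.3%), while in the whole lists they made up 41.1% and 42.5%.

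The strand of the peaks followed that of the HOX genes. All 21 untreated HOX peaks (100.0%, interval 83.9% to 100.0%) lay on the strand of their member, where 74.8% of 7338 untreated peaks near coding genes of a single strand did. In treated cells it was 24 of 26 (92.3%, 74.9% to 99.1%), where 73.6% of 7934 peaks did. The untreated interval does not contain the share of its list, and the treated interval does not contain its own, but neighbouring peaks share a cluster and are not independent. In untreated cells the plus-strand peak nearest to a HOXA peak was 908750 bp away. Both exceptions in treated cells lay over a noncoding gene of the opposite strand. At HOXA11, required for the uterus and forearm, the minus-strand peak chr7:27224251-27225000 over the start site was followed without a gap by the plus-strand peak chr7:27225001-27225750, which lay within HOXA11-AS. At HOXC13, the minus-strand peak chr12:54331296-54331795 lay within HOXC13-AS, 1000 bp from the plus-strand peak in the coding sequence of HOXC13.

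Of 22 noncoding genes on the strand opposite to the HOX genes in the clusters, 0 had a same-strand peak in untreated cells and 2 in treated cells, HOXA11-AS and HOXC13-AS. Over all 44310 annotated genes that are not protein-coding, 3.36% and 3.68% had such a peak, but those records were shorter, with a median length of 977.0 bp against 4710 bp for the 22 genes. A peak of either strand overlapped 6 of them in untreated and 7 in treated cells (5.53% and 6.01% of all such genes), since HOX-strand peaks lay over HOXA-AS2, HOXA-AS3, HOXA11-AS, HOXB-AS3, LINC02086, HOXD-AS2 and, in treated cells, HOXC13-AS. At LINC02086 the treated peak reached only the edge of the record. HOTAIR, which acts on chromatin at other loci, HOTTIP, which lies at the HOXA13 end and is tied to the trithorax factor WDR5, and HOTAIRM1, a myeloid transcript, had no peak of either strand. Among 17 noncoding genes on the HOX strand, 3 had a peak of that strand in both lists. They were LINC03057 and a pair of unnamed lncRNA genes that overlap the HOXA3 record (ENSG00000273433 and ENSG00000272801). None of the 7 miRNA genes of that strand, among them MIR196B, MIR196A1, MIR196A2, MIR10B and MIR615, overlapped a peak, and of all annotated miRNA genes 1.28% in untreated and 1.57% in treated cells did so on their own strand.

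The GC content of the HOX peaks was close to that of the lists, and a smaller share of them had an excess of G. The median GC content was 54.3% (quartiles 49.1% to 58.2%) over the 21 untreated and 57.4% (51.8% to 61.7%) over the 26 treated HOX peaks, beside 56.2% and 57.6% over all peaks. GC skew, the excess of G over C on the peak's own strand divided by G plus C, had a median of -0.0284 in untreated and -0.0333 in treated HOX peaks, beside 0.0 and -0.0132. It was above 0 in 8 of 21 untreated (38.1%) and 6 of 26 treated peaks (23.1%), where 49.3% and 44.0% of all peaks had a skew above 0. The HOXB5 peak had the lowest skew in both lists, -0.181, and the highest were 0.136 at the untreated HOXA3 intron peak and 0.0947 at the treated peak upstream of HOXA4. The ratio of observed to expected CpG had a median of 0.647 and 0.663, beside 0.612 and 0.643. A motif of 4 runs of GGG separated by 1 to 7 bases (any base), read on the strand of the peak alone and counted once per peak, was present in 3 untreated (14.3%) and 3 treated HOX peaks (11.5%). Peaks of the same widths in the whole lists held it in 18.8% of cases in both conditions. The untreated matches were the HOXB9 start site and both HOXA9 peaks, and the treated ones the HOXB9 start site, the HOXA9 start site and the HOXD3 intron, and the G runs can be seen in the stretches printed downstream of HOXA9 and for HOXD3.

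**Figure D4:**
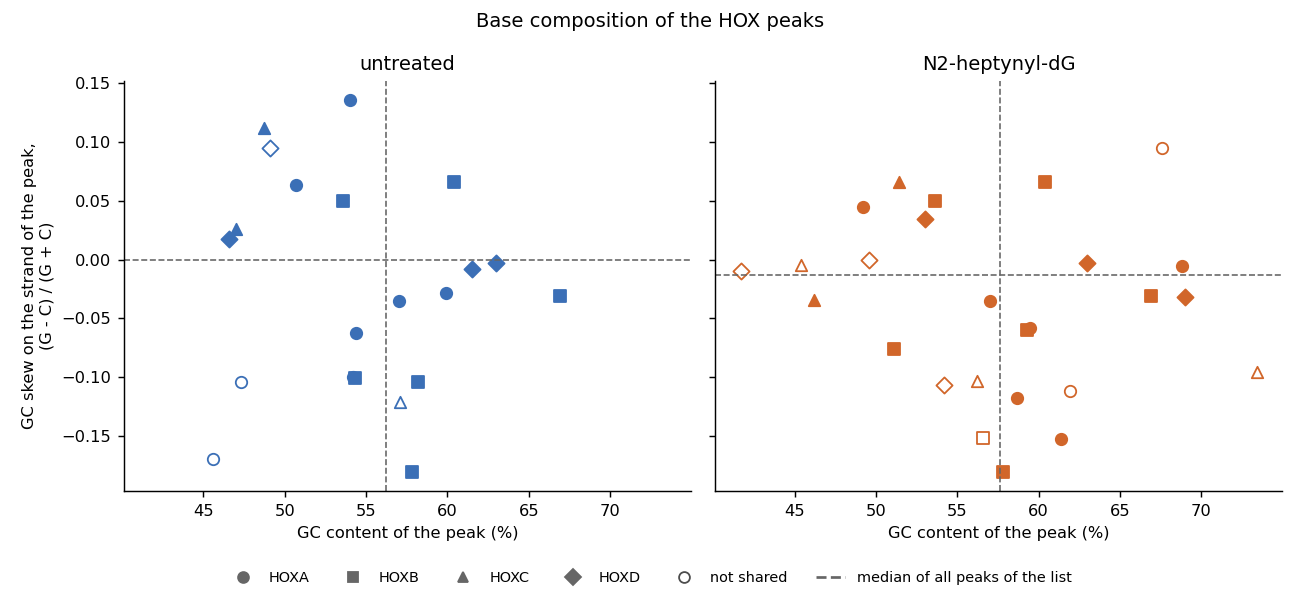
GC content in percent against GC skew on the strand of the peak, with 1 symbol per HOX peak, shaped by cluster and open where the peak is not shared, for untreated (left) and N2-heptynyl-dG (right) cells. Dashed lines mark the medians of all peaks of the list, 56.2% and 0.0 in untreated and 57.6% and -0.0132 in treated cells, and most HOX peaks lie below the skew median.

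The genes that work with the HOX genes were counted by the same rule. Of 9 TALE genes, whose homeodomain proteins bind DNA together with HOX proteins, 5 had a peak in untreated and 7 in treated cells, with PBX3 and PKNOX1 added. The widest were at MEIS3, 1250 bp in both lists, and at MEIS2. Of 11 genes of PRC2, the Polycomb complex that methylates histone H3 at silent HOX genes, 8 had a peak in each list. SUZ12, a core subunit, carried a peak of 2250 bp without and 2000 bp with treatment. Of 16 PRC1 genes, whose products bind that mark and compact chromatin, 11 and 12 had a peak, the widest at CBX6 with 3250 bp and 3500 bp. Of 10 trithorax and boundary genes, 9 had a peak in both lists, with 2250 bp and 1750 bp at RAD21, a cohesin subunit, and 2000 bp at CTCF in untreated cells. Of 21 other homeobox genes next to or related to the clusters, 7 and 8 had a peak, among them GBX1 with 2000 bp and 2250 bp. These other homeobox genes were covered at 33.3% and 38.1%, below the shares of 41.7% and 43.8% over coding genes, and the trithorax and boundary genes at 90.0% in each list.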

How the data were processed

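spKAS-seq was conducted by the authors in HEK293T cells with 2 samples per condition and 2 inputs. Per the labels, Trim Galore, Bowtie2, Picard, bedtools and deepTools were used, with hg19 as the genome. The deposited files analysed are 1 list of peaks per condition, each attached to replicate 1 and taken to stand for its condition. The paper states that R-loops were identified from 2 replicates, and its peak numbers equal the sizes of these lists, 10231 and 11085. Their positions and strands carry no score, so depth is unknown. The strand given was taken as that of the unpaired DNA, which the lists do not state. Reads, inputs and signal tracks were not analysed here.

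Peaks, GENCODE release 44 genes (19894 coding genes have a canonical start site) and sequence were joined on GRCh37. Peaks were shared when they overlapped by at least 1 bp on the same strand. Overlap counts were checked against bedtools 2.31.1 and tested on simulated data. Peaks masked over more than 50% were left out of composition. Some sequences are not reported here. Named are every member with a peak, every noncoding gene over a HOX peak and, of each other list, at most 4 genes with the widest peaks. The members and lists were chosen with earlier results of these data known. No test was made, since there is 1 list per condition. Alternatives changed the window, transcript, peak width, strand and overlap. Versions were Python 3.11.15, pandas 2.3.3, numpy 2.4.6, pysam 0.24.0, scipy 1.17.1, samtools 1.23.1 and matplotlib 3.10.9.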

Additional observations from a re-analysis of the deposited data

How the results depend on the processing

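The 12 results were recomputed under the alternatives, which gave 48 values, and 45 of these stayed within the interval, the quartiles or 1.5 times the value reported. When the gene record alone was used, without 2 kb on either side, 100.0% of treated HOX peaks lay on the strand of their member, because both opposite-strand peaks lie outside the HOX records. By this rule 14 untreated and 15 treated members had a peak, down from 21 in each list. The shares of 41.7% and 43.8% over coding genes belong to the 2-kb rule and cannot be set beside these counts. When peaks narrower than their list's median width of 750 bp were dropped, treated HOX peaks numbered 15, against 18 untreated, and 1 opposite-strand noncoding gene, HOXA11-AS, had a same-strand peak in treated cells. The excess of treated over untreated HOX peaks therefore rests on peaks of 500 bp. With 5 kb on either side, 27 untreated and 26 treated members had a peak, with no further peak added. No paired analysis was possible because the lists analysed here number 1 per condition, with no column for a replicate, and no replicate could be left out of them; the signal of the separate samples was not analysed here. Since the lists hold no score, a peak missing from one list cannot be told apart from one just under the threshold of the peak calling.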
